A study of Homo sapiens with 18 samples.

Results

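The nuclear genes of respiratory complexes I, II and III were examined in RNA sequencing of Ewing sarcoma cell lines. Members were the table rows whose symbol is an NDUFA, NDUFB, NDUFC, NDUFS or NDUFV number, NDUFAB1, NDUFAF1 to NDUFAF7, SDHA to SDHD, UQCRC1, UQCRC2, UQCRB, UQCRQ, UQCRH, UQCRFS1, UQCR10, UQCR11 or CYC1. This took 58 of the 58381 rows of each table, and all 58 passed the filter on low counts in each line. They comprise 7 core subunits of complex I encoded in the nucleus, 30 accessory subunits, 7 assembly factors, 4 genes of complex II and 9 of complex III. The last member, NDUFA4, is named as a complex I gene, but its product is known as a subunit of complex IV.

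Ewing sarcoma is a tumour of bone and soft tissue driven by a fusion of EWSR1 with an ETS transcription factor, most often FLI1. TC-32, TC-71 and A673 are established lines of this tumour with the EWSR1::FLI1 fusion, and each line has its own genome. In each line, 3 libraries came from cells reverse transfected with siFLI1, a small interfering RNA against FLI1, and 3 from cells given the control siNeg. Both RNAs were used at 20 nM with the same lipid reagent, so every group compared is a transfected one. TC-32 and TC-71 grew in RPMI medium and A673 in DMEM. The column names give 48 h for the 12 libraries of TC-32 and TC-71 and no time for A673. The labels do not say that the 3 libraries of a group came from separate cultures, so p-values measure only the spread between these libraries, which may be technical.

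Complex I passes electrons from NADH to ubiquinone and pumps protons, complex II passes electrons from succinate to ubiquinone, and complex III moves them from ubiquinol to cytochrome c. Complexes I and III are built from subunits of both genomes: the nuclear core subunits of complex I join core subunits encoded by mitochondrial DNA, while complex II has nuclear genes alone. Assembly factors help to build a complex and are not part of the finished enzyme. The question asked was how the transcripts of this group stood in siFLI1 cells against siNeg cells of the same line.

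TC-32 libraries held 24102487 to 33669271 counts, TC-71 libraries 19685354 to 37234528, and A673 libraries 114564479 to 120993595. Values are counts scaled to a common library size (CPM) after TMM normalisation, and log2 fold changes are siFLI1 over siNeg. FLI1 fell in every line. Its siFLI1 level was 48.9% of siNeg for TC-32, 36.1% for TC-71 and 23.5% for A673, with log2 fold changes of -1.03, -1.47 and -2.09 (edgeR adjusted p = 1.85e-13, 8.88e-18 and 2.02e-16). FLI1 counts cannot separate the fusion from the normal gene. The 6 Ewing sarcoma markers CD99, NKX2-2, NR0B1, STEAP1, PRKCB and CCND1 summed to between 1803 and 2524 CPM over all siNeg libraries and to between 339 and 820.1 CPM over all siFLI1 libraries. CD99 is the exception among them in TC-71, with no counts in any library. The TC-71 table is the one its name attributes to Subread, and its way of counting shared reads is not given in the sources used here. Whether the line lacks the CD99 transcript therefore cannot be told from these counts. Of 10 markers of leukocytes, epithelium, endothelium and muscle, PTPRC, CD3E and MYOG never passed 10 counts. The 10 summed to 8.01 to 10.2 CPM with siNeg and 15.3 to 15.9 with siFLI1 for TC-32, to 11.8 to 12.01 and 14.1 to 14.8 for TC-71, and to 10.7 to 12.8 and 26.4 to 29.5 for A673. Their part in the results was not tested.

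With siFLI1, the complex I to III genes fell almost as a block in TC-32, less deeply in TC-71, and in A673 they divided. In TC-32, 55 of the 58 members were lower, 0 were higher (0 also at an unadjusted p under 0.05 and by DESeq2) and 3 were not called, against 40.1% of all 16227 genes tested that were called lower. TC-71 had 46 members lower, 2 higher and 10 not called, where 35% of 17085 genes were lower and 36.8% higher. In A673, 32 members were lower, 8 higher and 18 not called, where 35.4% of 18444 genes were lower and 35.6% higher. In either direction, 81.4%, 71.9% and 71% of genes were called. A gene counts as called at an edgeR adjusted p under 0.05 over all genes tested. Since these calls reach most genes of a library set, the members' counts are read against those shares.

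The median member stood at 61.2% of siNeg for TC-32 (log2 fold change -0.71), 81.6% for TC-71 (-0.29) and 90.4% for A673 (-0.15). The median over all genes tested was 0.02, 0.02 and -0.01. These transcripts are abundant, and abundant genes fell more often in TC-32: 52.9% of genes that average at least 5 in log2 CPM were called lower there, against 43.9% in TC-71 and 38.5% in A673. A fall of at least 2-fold was called for 13 members in TC-32, where 15.6% of genes passed that limit, and for 0 in TC-71 and A673 by the same edgeR test, where 9.38% and 9.87% passed. All 3 siFLI1 libraries lay below all 3 siNeg libraries for 54 members in TC-32 (40.7% of genes tested), 43 in TC-71 (36%) and 32 in A673 (37%). In bulk libraries, fewer cells of a kind and less RNA per cell cannot be told apart.

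**Figure D1:**
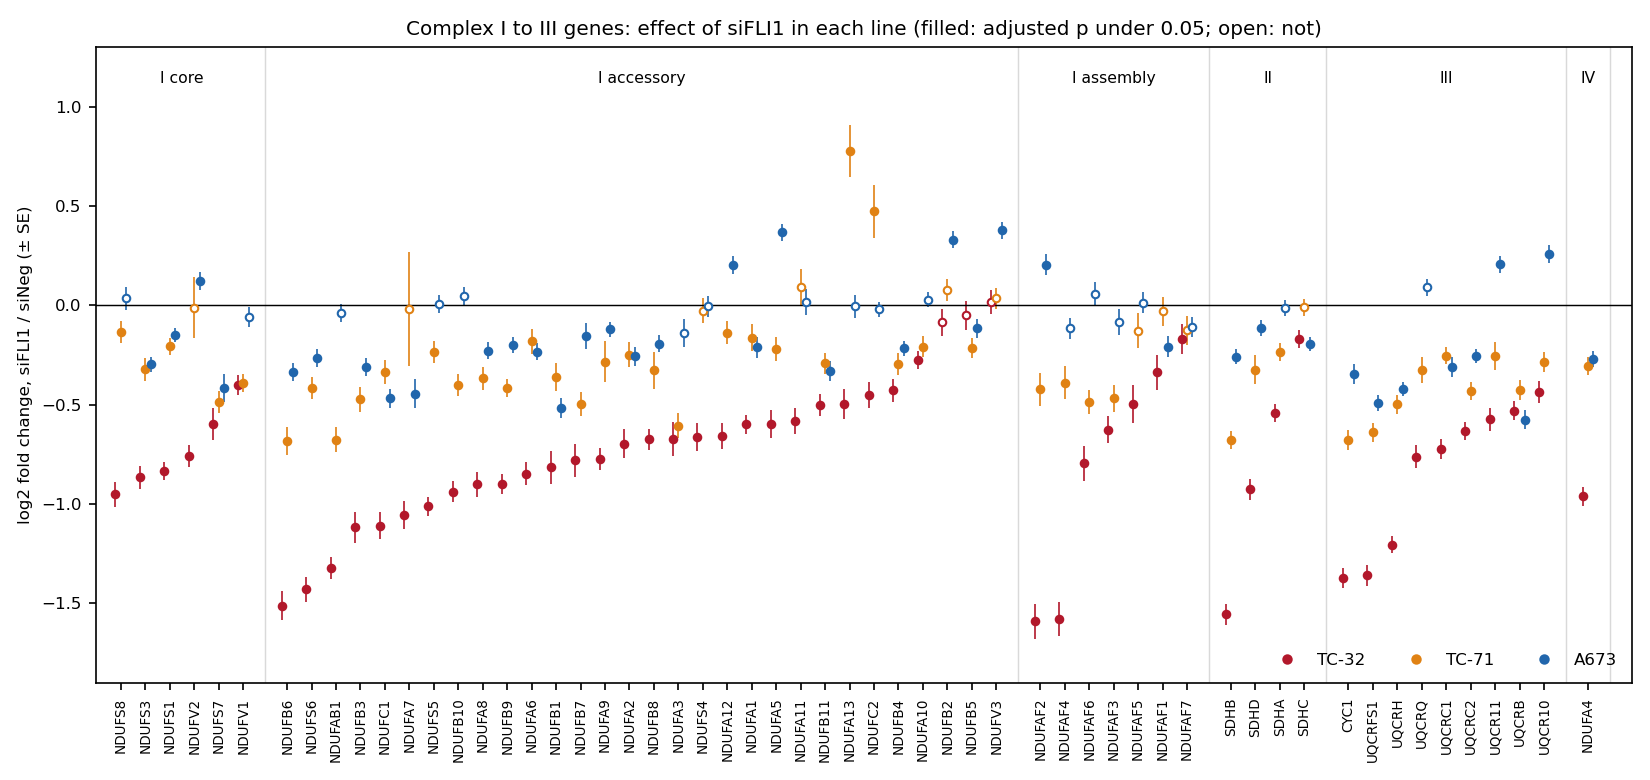
Log2 fold change of siFLI1 over siNeg for 57 of the 58 members in each line, with the standard error as a bar, 3 libraries per group; filled points have an edgeR adjusted p under 0.05. The TC-32 points run from -1.59 to 0.02, the TC-71 points from -0.68 to 0.78 and the A673 points from -0.58 to 0.38.

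**Figure D2:**
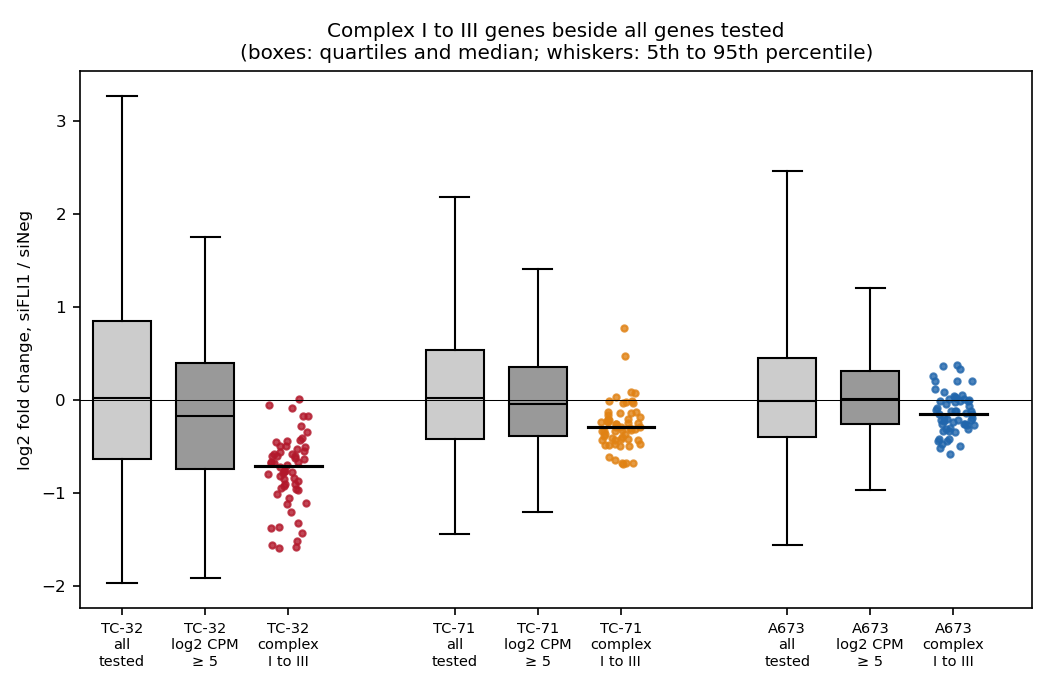
Log2 fold changes of the 58 members (points, with the median as a bar) beside all genes tested and those that average at least 5 in log2 CPM in the same line (boxes show quartiles and median, whiskers the 5th to 95th percentile). The members' medians of -0.71, -0.29 and -0.15 lie below the all-gene medians of 0.02, 0.02 and -0.01.

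As a sum over the 58 transcripts, the level went from 4617 ± 61.7 to 2774 ± 31.5 CPM in TC-32 (SD, n = 3 per group), which leaves 60.1%. The same sum went from 5011 ± 163 to 3987 ± 140.0 CPM in TC-71 (79.6% left) and from 3943 ± 28.8 to 3518 ± 37.6 CPM in A673 (89.2% left). In no line did the siNeg and siFLI1 sums overlap. Of the groups of members, complex III kept the smallest share in each line, 55.8% for TC-32, 74.1% for TC-71 and 81.7% for A673. Complex II kept 64.1%, 81.5% and 90.3%, the complex I core 63.7%, 82.4% and 88.4%, and the accessory subunits 61.2%, 80.7% and 94.2%. The assembly factors kept 58.7% for TC-32 and 79.4% for TC-71, but 98.3% for A673. A sum is weighted to its most abundant transcripts, and these shares are descriptions with no test.

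**Figure D3:**
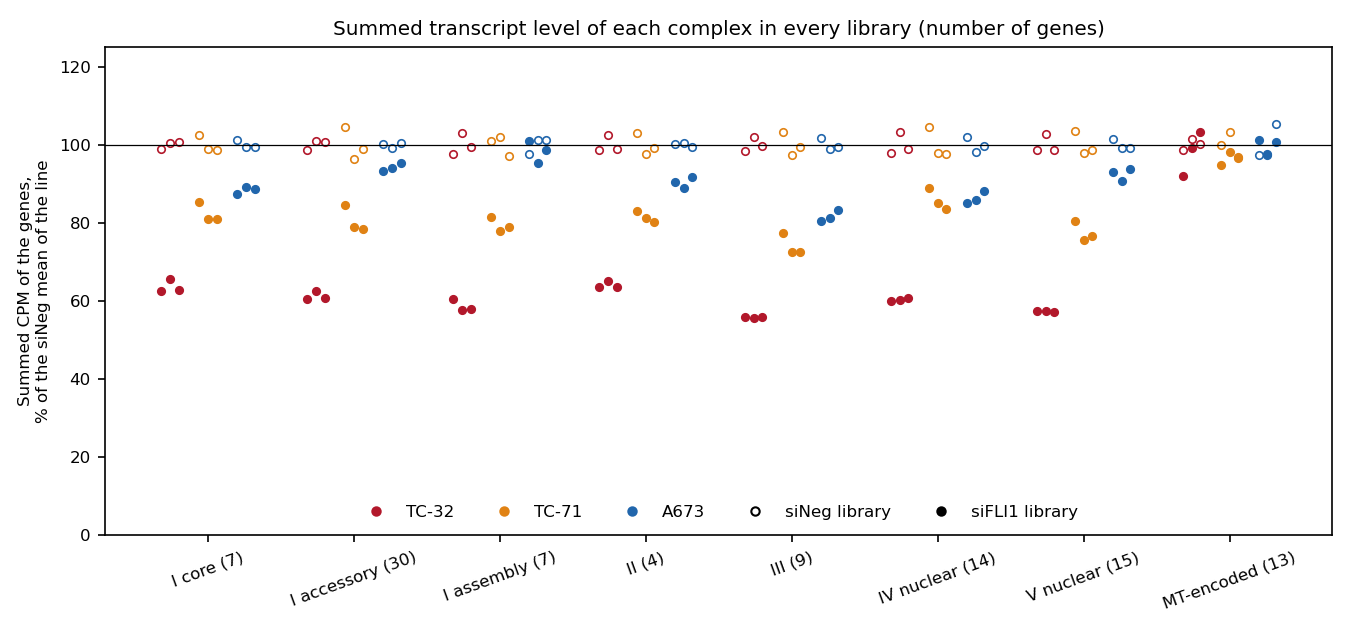
Summed CPM of each gene group in every library, as a percent of the siNeg mean of that line; open points are siNeg, filled points siFLI1, and the number of genes is in brackets. The siFLI1 libraries of TC-32 lie lowest for each nuclear group, while the 13 mitochondrially encoded genes lie close to the siNeg mean in all 3 lines.

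Promoters of 7 members that fell in all lines or deeply in TC-32, among them the 4 deepest falls there (NDUFAF2, NDUFAF4, SDHB and NDUFB6), are shown beside those of 2 members not called there. They were chosen after their values were seen, since FLI1 is an ETS factor and GABPA, another one, is known to act on genes of the respiratory chain. RefSeq windows from 250 bases before to 50 after the start (GRCh38.p14) were found for 48 of the 58 members. Each sequence below is the 160 bases before the RefSeq start, with matches to the searched motifs in capitals. They lie at chr1:17054033-17054192 (minus strand) for SDHB, chr11:112086713-112086872 (plus strand) for SDHD, chr1:46303538-46303697 (plus strand) for UQCRH, chr11:47578914-47579073 (plus strand) for NDUFS3, chr6:96897892-96898051 (minus strand) for NDUFAF4, chr5:60945045-60945204 (plus strand) for NDUFAF2, chr9:32573160-32573319 (minus strand) for NDUFB6, chr21:42893149-42893308 (plus strand) for NDUFV3 and chr7:140696548-140696707 (plus strand) for NDUFB2.
SDHB: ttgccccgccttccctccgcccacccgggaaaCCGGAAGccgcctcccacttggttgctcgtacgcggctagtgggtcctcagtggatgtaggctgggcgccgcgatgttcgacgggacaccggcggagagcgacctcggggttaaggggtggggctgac
SDHD: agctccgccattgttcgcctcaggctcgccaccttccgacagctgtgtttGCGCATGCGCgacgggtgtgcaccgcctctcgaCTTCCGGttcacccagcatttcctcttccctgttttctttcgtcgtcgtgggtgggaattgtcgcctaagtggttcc
UQCRH: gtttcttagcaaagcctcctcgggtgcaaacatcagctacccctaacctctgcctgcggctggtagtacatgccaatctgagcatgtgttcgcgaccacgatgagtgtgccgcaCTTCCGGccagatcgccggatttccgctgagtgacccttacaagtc
NDUFS3: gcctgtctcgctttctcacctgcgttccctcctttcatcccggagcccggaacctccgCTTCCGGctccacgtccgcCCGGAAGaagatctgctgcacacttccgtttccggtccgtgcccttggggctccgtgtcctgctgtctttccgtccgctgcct
NDUFAF4: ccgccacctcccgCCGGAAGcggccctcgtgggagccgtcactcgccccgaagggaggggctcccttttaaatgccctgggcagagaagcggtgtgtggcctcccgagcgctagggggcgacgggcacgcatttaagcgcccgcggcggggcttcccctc
NDUFAF2: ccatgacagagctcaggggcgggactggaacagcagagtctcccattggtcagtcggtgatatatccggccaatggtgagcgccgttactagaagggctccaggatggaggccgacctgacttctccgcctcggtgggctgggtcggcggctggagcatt
NDUFB6: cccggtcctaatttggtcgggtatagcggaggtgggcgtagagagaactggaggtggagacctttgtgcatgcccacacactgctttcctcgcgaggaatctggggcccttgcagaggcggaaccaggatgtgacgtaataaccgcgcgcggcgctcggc
NDUFV3: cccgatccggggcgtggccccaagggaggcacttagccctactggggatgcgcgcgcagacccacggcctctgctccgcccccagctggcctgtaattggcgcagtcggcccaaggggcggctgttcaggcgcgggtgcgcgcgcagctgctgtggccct
NDUFB2: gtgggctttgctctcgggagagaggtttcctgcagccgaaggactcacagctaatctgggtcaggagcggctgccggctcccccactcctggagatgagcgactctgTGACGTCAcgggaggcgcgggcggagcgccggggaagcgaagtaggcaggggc

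In these windows, CCGGAAG (read CTTCCGG on the other strand) is the letters searched for ETS factors, TGACGTCA those for CREB, and the palindrome of NRF1 was searched by its consensus. SDHB and NDUFAF4 hold 1 ETS match each, NDUFS3 holds 2, UQCRH 1, and SDHD 1 beside an NRF1 match. NDUFB2 shows a CREB match, and NDUFAF2, NDUFB6 and NDUFV3 none of the motifs. A CREB match of SDHB runs across its start and is cut off by the bases shown. Over the whole windows and both strands, the ETS letters were in 11 of the 48 members (22.9%). Of 27305 genes with windows of the same length, 12.2% held them. A gene with several starts counts once, if any of its windows holds a match. The 27305 genes were not limited to those expressed here. The members with the ETS letters were NDUFA1, NDUFA13, NDUFAF4, NDUFB7, NDUFS1, NDUFS3, SDHB, SDHD, UQCR11, UQCRH and UQCRQ. AAGATGGCG, searched for YY1, was in 8 members (16.7% against 2.14%): NDUFA6, NDUFA7, NDUFA9, NDUFB8, NDUFS4, NDUFS7, SDHB and UQCRC1. All 8 of these matches lie after the start, outside the bases shown. The NRF1 palindrome was in NDUFA8, NDUFAF5, NDUFB4 and SDHD (8.33% against 1.52%), and TGACGTCA in NDUFA10, NDUFB2 and SDHB (6.25% against 2.25%). A run of 3 GGAA units, the kind of repeat that the fusion is known to bind, was in 0 members, and in 0.095% of all genes. GENCODE begins the SDHB, UQCRH and NDUFAF4 genes at the RefSeq start. The other 6 genes shown begin before it in GENCODE, NDUFB6, NDUFAF2 and SDHD by 25, 28 and 49 bases and NDUFB2, NDUFV3 and NDUFS3 by 5931, 13665 and 13738. A match is a description of the letters and shows no binding. Of the 13 members called lower by at least 2-fold in TC-32, 11 have a window, and 3 of these hold the ETS letters (27.3%): NDUFAF4, SDHB and UQCRH. NDUFA7, NDUFAB1, NDUFAF2, NDUFB3, NDUFB6, NDUFC1, NDUFS6 and UQCRFS1 do not. Among the other members, 8 of the 37 with a window hold them (21.6%). NDUFS6, UQCRFS1 and NDUFAB1, at -1.43, -1.36 and -1.32, fell further in TC-32 than UQCRH, SDHD and NDUFS3, but are not shown. The promoters shown thus hold the ETS letters more often than the members do, and they do not stand for the group. Members with the ETS letters ranged in TC-32 from -1.58 (NDUFAF4) to -0.50 (NDUFA13).

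The core subunits of complex I carry its flavin and iron-sulphur clusters and the path to ubiquinone. TC-32 had all 7 lower and TC-71 had 6. A673 had 4 lower, and there NDUFV2 was higher and NDUFS8 and NDUFV1 were not called. NDUFS1, the largest iron-sulphur subunit, had log2 fold changes of -0.83 for TC-32, -0.21 for TC-71 and -0.15 for A673. NDUFS7, an iron-sulphur subunit beside the ubiquinone pocket, fell in all 3 lines, by 0.60, 0.48 and 0.41 on the log2 scale. NDUFS3, an early building block of the same arm, fell by 0.87, 0.32 and 0.30. For NDUFS7, genes on the opposite strand share 51.3% of the exon bases of its main transcript. Whether counting used strand is not given in the sources used here, so the NDUFS7 level is uncertain. The iron-sulphur subunit NDUFS8 had the largest fall of the core in TC-32, -0.95 (edgeR adjusted p = 4.86e-13, SE 0.0617), with -0.14 in TC-71 and an uncalled 0.04 in A673. Its TC-71 call was lost without siNeg replicate 1 or 3 or siFLI1 replicate 3 (adjusted p from 0.0705 to 0.197), and without siFLI1 replicate 1 it was called higher in A673 (0.12, adjusted p = 0.0146). NDUFV1, which oxidises NADH at its flavin, had -0.40 for TC-32 and -0.39 for TC-71, a gap of -0.02 (edgeR adjusted p = 0.899, SE 0.0723) that did not pass the test, and an uncalled -0.06 for A673. NDUFV2, its iron-sulphur partner, had -0.76 for TC-32 and 0.12 for A673. The rise of NDUFV2 in A673 was not called with library size alone (0.019, adjusted p = 0.704), without siNeg replicate 2 (0.11, adjusted p = 0.0745) or without siFLI1 replicate 3 (0.12, adjusted p = 0.0595).

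Levels of some members were low in TC-71 alone. NDUFV2 measured 3.12, 3.09 and 4.23 CPM with siNeg in TC-71, where its means were 69.4 CPM in TC-32 and 63.9 CPM in A673. The same held for NDUFA7, with a siNeg mean of 0.92 ± 0.173 CPM in TC-71 against 29.5 and 18 CPM, for NDUFA13 (3.376 against 98.7 and 75.5), for NDUFA9 (9.74 against 74.5 and 102) and for NDUFB8 (13 against 75.3 and 82.4). In GENCODE release 44 (GRCh38), another gene on the same strand covers 89.96% of the exon bases of the main NDUFV2 transcript, 83.9% for NDUFA13, 77.9% for NDUFA7 and 72% for NDUFB8. NDUFA9 shares only 11.7%. NDUFA11 shares 68.2%, and its siNeg mean was 16.5 CPM in TC-71 against 77.1 in TC-32 and 46.6 in A673. SDHA shares 69.4% and was not low in TC-71, with 184 CPM against 182 and 109. In all, 11 members share at least 10% of these bases, and the TC-71 table is the one its name attributes to Subread. How shared reads were counted is not given in the sources used here, so the levels of these genes are uncertain in TC-71, and the part of the counter was not tested. Among the 47 other members, 40 were called in TC-71 and all 40 were lower.

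Of the 30 accessory subunits, which surround the core, 27 were lower in TC-32 and 0 higher. TC-71 had 23 lower and 2 higher, and A673 had 17 lower and 4 higher. Median log2 fold changes were -0.69, -0.27 and -0.15. The largest falls in TC-32 after NDUFB6 were those of NDUFS6, -1.43, and of NDUFAB1, the acyl carrier protein of the mitochondrion, -1.32. NDUFAB1 had -0.68 for TC-71 and an uncalled -0.04 for A673.

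NDUFB6 measured 30.4, 29.7 and 29.5 CPM in the siNeg libraries of TC-32 and 11, 10.1 and 10.4 CPM in the siFLI1 libraries. The TC-71 libraries held 45.4, 41 and 39 CPM of NDUFB6 with siNeg and 27.7, 23.9 and 26.6 CPM with siFLI1. For NDUFB6, the A673 values were 36.5, 37.5 and 38.6 CPM with siNeg and 29.8, 28.6 and 30.8 CPM with siFLI1. NDUFB6, an accessory subunit of the membrane arm at chr9:32553001-32573184, was thus lower in every siFLI1 library than in every siNeg library of its line. Its log2 fold changes were -1.51 (edgeR adjusted p = 1.64e-15, SE 0.0738) for TC-32, -0.68 (edgeR adjusted p = 5.9e-10, SE 0.0695) for TC-71 and -0.33 (edgeR adjusted p = 5.91e-06, SE 0.0452) for A673. NDUFB1, a small membrane-arm subunit, was among the 3 deepest falls in A673. The A673 libraries held 25.6, 24.9 and 27.6 CPM of NDUFB1 with siNeg and 17.9, 17.9 and 18.7 CPM with siFLI1. Both sets of libraries stand apart, with a log2 fold change of -0.52 (edgeR adjusted p = 1.57e-07, SE 0.0512). The TC-32 and TC-71 values of NDUFB1 were -0.82 and -0.36.

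A few accessory subunits did not follow the rest. NDUFV3, NDUFB2 and NDUFB5 were the members not called in TC-32, with 0.02, -0.09 and -0.05. In A673 the 3 largest rises of all members were NDUFV3, NDUFA5 and NDUFB2. NDUFV3 (chr21:42879644-42913304) encodes an accessory subunit of the NADH-binding module. NDUFV3 measured 34.2, 32.9 and 34.6 CPM in the siNeg libraries of A673 and 43.4, 45 and 43.7 CPM in the siFLI1 libraries. The siFLI1 libraries were all higher than the siNeg libraries, a log2 fold change of 0.38 (edgeR adjusted p = 6.22e-07, SE 0.0421). The TC-71 value was 0.04 (edgeR adjusted p = 0.547), and the effect in A673 exceeded that in TC-71 by 0.31 (edgeR adjusted p = 0.000162, SE 0.0659).

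NDUFB2 measured 32, 33.4 and 32.9 CPM in the siNeg libraries of A673 and 41, 40.9 and 41.8 CPM in the siFLI1 libraries. NDUFB2, a membrane-arm subunit at chr7:140690777-140722790, was higher in each siFLI1 library, by 0.33 (edgeR adjusted p = 2.32e-06, SE 0.0413) on the log2 scale. Its groups overlapped in TC-32 and TC-71. NDUFB2-AS1 on the opposite strand shares 24.3% of its exon bases. The kit marks strand, but whether counting used strand is not given in the sources used here.

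NDUFA5, an accessory subunit of the arm that reaches ubiquinone (chr7:123536997-123557904), moved in opposite directions. The A673 libraries held 43.5, 46.5 and 46 CPM of NDUFA5 with siNeg and 60.6, 56.7 and 58.1 CPM with siFLI1. For NDUFA5, the TC-32 values were 36, 32.6 and 33.3 CPM with siNeg and 24.6, 21.3 and 21.5 CPM with siFLI1. NDUFA5 measured 42.7, 45.3 and 40.5 CPM in the siNeg libraries of TC-71 and 36.1, 36.9 and 37 CPM in the siFLI1 libraries. It rose in all A673 libraries and fell in all libraries of the other lines, with no overlap in any line. The log2 fold changes were 0.37 (edgeR adjusted p = 1.36e-06, SE 0.0438) for A673, -0.60 (edgeR adjusted p = 3.71e-08, SE 0.0708) for TC-32 and -0.22 (edgeR adjusted p = 0.00179, SE 0.06) for TC-71. Between TC-32 and A673 the effect differed by -0.94 (edgeR adjusted p = 3.01e-12, SE 0.0813), and between A673 and TC-71 by 0.55 (edgeR adjusted p = 2.61e-07, SE 0.0782). NDUFA5 has 12 pseudogenes named after it in GENCODE release 44, and how reads shared with them were counted is not given in the sources used here.

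NDUFA13 and NDUFC2 were the 2 members higher in TC-71, and both are among the genes with low counts there. NDUFA13 measured 3.56, 3.09 and 3.47 CPM in the siNeg libraries of TC-71 and 5.48, 5.81 and 6.12 CPM in the siFLI1 libraries. The TC-32 libraries held 98.9, 94 and 103 CPM of NDUFA13 with siNeg and 60.9, 78.5 and 70.0 CPM with siFLI1. For NDUFA13, the A673 values were 76.1, 76.4 and 74.1 CPM with siNeg and 66.5, 81.6 and 77.7 CPM with siFLI1. NDUFA13, a subunit with a role in cell death under the name GRIM-19, thus rose without overlap in TC-71, fell in TC-32 and overlapped in A673. Its log2 fold changes were 0.78 (edgeR adjusted p = 5.09e-06, SE 0.131) for TC-71 and -0.50 (edgeR adjusted p = 1.27e-05, SE 0.0732) for TC-32, which differ by -1.28 (edgeR adjusted p = 1.23e-07, SE 0.164). Its TC-71 value rests on as few as 61 counts in a library. The A673 value of -0.01 was not called, but without siFLI1 replicate 1 it was called higher (0.083, adjusted p = 0.0369).

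The TC-71 libraries held 5.31, 6.44 and 4.55 CPM of NDUFC2 with siNeg and 6.42, 8.8 and 7.11 CPM with siFLI1. For NDUFC2, the TC-32 values were 44.2, 37 and 40.8 CPM with siNeg and 29.4, 29.8 and 29.9 CPM with siFLI1. NDUFC2 measured 69.9, 70.0 and 72.8 CPM in the siNeg libraries of A673 and 69.4, 70.5 and 69.9 CPM in the siFLI1 libraries. For NDUFC2, a membrane-arm subunit, the TC-71 groups overlapped, since siNeg replicate 2 lay just above siFLI1 replicate 1. Log2 fold changes were 0.47 (edgeR adjusted p = 0.00245, SE 0.133) for TC-71, -0.45 (edgeR adjusted p = 1.22e-06, SE 0.0666) for TC-32 and -0.02 for A673. The TC-32 and TC-71 effects differed by -0.94 (edgeR adjusted p = 2.23e-07, SE 0.132). A readthrough gene, NDUFC2-KCTD14, is on the same strand, where 19.7% of the NDUFC2 exon bases are shared, so these TC-71 values are uncertain.

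The deepest falls of all members in TC-32 were those of the complex I assembly factors NDUFAF2 and NDUFAF4. The median log2 fold change of the 7 assembly factors there was -0.63, against -0.71 over all members. All 7 were lower there. TC-71 had 4 lower, and A673 had 1 lower and NDUFAF2 higher. NDUFAF2 holds the place that the subunit NDUFA12 takes in the finished complex. NDUFAF2 measured 24.9, 28.3 and 24.5 CPM in the siNeg libraries of TC-32 and 9.47, 8.58 and 7.82 CPM in the siFLI1 libraries. The TC-71 libraries held 19.2, 19.6 and 18.3 CPM of NDUFAF2 with siNeg and 15.1, 15 and 12.8 CPM with siFLI1. For NDUFAF2, the A673 values were 20.3, 20.7 and 22.8 CPM with siNeg and 25.3, 23.4 and 24.8 CPM with siFLI1. The siFLI1 libraries were the lower ones in TC-32 and TC-71 and the higher ones in A673, with no overlap in any line. The log2 fold changes were -1.59 (edgeR adjusted p = 1.95e-14, SE 0.0879) for TC-32, -0.42 (edgeR adjusted p = 4.52e-05, SE 0.0829) for TC-71 and 0.20 (edgeR adjusted p = 0.00304, SE 0.0541) for A673. This was the widest gap between TC-32 and A673 among members called in opposite directions, -1.77 (edgeR adjusted p = 1.58e-16, SE 0.105), and A673 exceeded TC-71 by 0.60 (edgeR adjusted p = 8.04e-06, SE 0.103). The rise in A673 was not called with library size alone (0.10, adjusted p = 0.1). NDUFA12 went the same ways, with -0.66, -0.14 and 0.20.

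NDUFAF4, which works with NDUFAF3 on the arm that reaches ubiquinone, was the next lowest in TC-32. The TC-32 libraries held 20.2, 20.5 and 22.3 CPM of NDUFAF4 with siNeg and 6.78, 7.22 and 7.07 CPM with siFLI1. For NDUFAF4, the TC-71 values were 28.2, 26.6 and 22.7 CPM with siNeg and 17.8, 19.4 and 21.5 CPM with siFLI1. NDUFAF4 measured 24.3, 25.8 and 25.1 CPM in the siNeg libraries of A673 and 24.4, 21.4 and 23.5 CPM in the siFLI1 libraries. The groups did not overlap in TC-32 and TC-71 and overlapped in A673. NDUFAF4 had log2 fold changes of -1.58 (edgeR adjusted p = 1.56e-14, SE 0.0862) for TC-32, -0.39 (edgeR adjusted p = 0.000176, SE 0.084) for TC-71 and -0.12 (edgeR adjusted p = 0.0646, SE 0.0535) for A673. Without siFLI1 replicate 1, NDUFAF4 was called lower in A673 (-0.15, adjusted p = 0.00592). NDUFAF3 had -0.63, -0.47 and an uncalled -0.08, and NDUFAF6, another factor of that arm, -0.80, -0.49 and an uncalled 0.06. NDUFAF5, which hydroxylates NDUFS7, was called only at -0.50 for TC-32, with -0.13 and 0.01 for TC-71 and A673. NDUFAF7, a methyltransferase, had -0.17 in TC-32 (edgeR adjusted p = 0.044), a call lost with RLE factors, library size alone, DESeq2, the length trend removed, and without any 1 of replicates 2 and 3 of either siRNA (adjusted p from 0.0546 to 0.209), and uncalled values of -0.13 and -0.11. NDUFAF7 was called lower in TC-71 without siNeg replicate 3 (-0.18, adjusted p = 0.0478) or siFLI1 replicate 1 (-0.17, adjusted p = 0.0423), and in A673 without siFLI1 replicate 1 (-0.12, adjusted p = 0.028) or with library size alone (-0.21, adjusted p = 0.00113). NDUFAF1, a factor of the membrane arm, had -0.34 for TC-32, -0.21 for A673 and an uncalled -0.03 for TC-71.

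Complex II has 4 subunits: SDHA binds the flavin, SDHB carries the iron-sulphur clusters, and SDHC and SDHD anchor them in the membrane. TC-32 had all 4 genes lower, and TC-71 and A673 had 3 each, by very different amounts. SDHB (chr1:17018664-17054032), whose promoter is printed above, fell furthest in each line. SDHB measured 108, 119 and 116 CPM in the siNeg libraries of TC-32 and 37.7, 40.7 and 38.1 CPM in the siFLI1 libraries. The TC-71 libraries held 163, 151 and 152 CPM of SDHB with siNeg and 98.5, 99.2 and 94.3 CPM with siFLI1. For SDHB, the A673 values were 111, 111 and 111 CPM with siNeg and 95.7, 89.6 and 93.1 CPM with siFLI1. Every siFLI1 library lay below every siNeg library of its line. Means went from 114 ± 5.65 to 38.8 ± 1.62 CPM in TC-32 (SD, n = 3 per group). TC-71 means were 155 ± 6.93 and 97.3 ± 2.66 CPM, and A673 means 111 ± 0.368 and 92.8 ± 3.08 CPM. The log2 fold changes were -1.56 (edgeR adjusted p = 2.18e-18, SE 0.0548), -0.68 (edgeR adjusted p = 1.12e-13, SE 0.0468) and -0.26 (edgeR adjusted p = 1.47e-05, SE 0.0381). TC-32 less A673 gave -1.27 (edgeR adjusted p = 3.06e-18, SE 0.0651), and TC-32 less TC-71 gave -0.89 (edgeR adjusted p = 1.74e-13, SE 0.0669).

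The TC-32 libraries held 67.9, 70.0 and 66.6 CPM of SDHD with siNeg and 35.3, 35.9 and 36.4 CPM with siFLI1. For SDHD, the TC-71 values were 40.9, 48.9 and 38.3 CPM with siNeg and 35.1, 31.9 and 34.8 CPM with siFLI1. SDHD measured 117, 119.7 and 117 CPM in the siNeg libraries of A673 and 110.3, 104 and 112 CPM in the siFLI1 libraries. SDHD (chr11:112086824-112120016) also fell in each line and no groups overlapped, the log2 fold changes being -0.93 (edgeR adjusted p = 6.8e-14, SE 0.0544), -0.32 (edgeR adjusted p = 0.000343, SE 0.0735) and -0.11 (edgeR adjusted p = 0.0158, SE 0.039). In A673 the call of SDHD was lost without siNeg replicate 2 (-0.10, adjusted p = 0.0766), without siFLI1 replicate 2 (-0.078, adjusted p = 0.0664) and with the length trend removed (-0.045, adjusted p = 0.323). SDHD has 6 named pseudogenes and shares 23.8% of its exon bases with another gene on its strand.

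For SDHA, the TC-32 values were 179, 184 and 181 CPM with siNeg and 121, 129 and 124 CPM with siFLI1. SDHA measured 189.6, 175 and 187 CPM in the siNeg libraries of TC-71 and 163, 154 and 153 CPM in the siFLI1 libraries. The A673 libraries held 111, 108 and 107 CPM of SDHA with siNeg and 102, 109 and 112 CPM with siFLI1. SDHA fell in TC-32 and TC-71 and overlapped between siRNAs in A673. Its log2 fold changes were -0.54 (edgeR adjusted p = 3.69e-11, SE 0.0439) for TC-32, -0.23 (edgeR adjusted p = 3.82e-05, SE 0.0452) for TC-71 and -0.01 (edgeR adjusted p = 0.79, SE 0.0408) for A673. Another gene on the same strand covers 69.4% of its exon bases, so its level is uncertain. The TC-32 libraries held 139, 139.9 and 132 CPM of SDHC with siNeg and 124.9, 121 and 119 CPM with siFLI1. For SDHC, the TC-71 values were 136, 127 and 133 CPM with siNeg and 130.2, 132 and 131 CPM with siFLI1. SDHC measured 156, 156 and 155 CPM in the siNeg libraries of A673 and 137, 135 and 136 CPM in the siFLI1 libraries. SDHC was the one complex II gene that moved little in TC-32, and its TC-71 groups overlapped. Log2 fold changes of SDHC were -0.17 (edgeR adjusted p = 0.0017, SE 0.0454), -0.01 (edgeR adjusted p = 0.84, SE 0.0444) and -0.19 (edgeR adjusted p = 9.29e-05, SE 0.0342). For SDHC, TC-32 less A673 gave 0.05 (edgeR adjusted p = 0.436, SE 0.0559), past no threshold, which does not show equal effects. With the length trend removed, SDHC was not called in TC-32 (-0.078, adjusted p = 0.124) and was called higher in TC-71 (0.11, adjusted p = 0.0256).

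In complex III, no gene went uncalled in TC-32 or TC-71. All 9 genes were lower in TC-32 and in TC-71, and 6 were lower in A673, where UQCR10 and UQCR11 were higher and UQCRQ was not called. Median log2 fold changes were -0.72, -0.43 and -0.31. UQCRFS1, the Rieske iron-sulphur protein, and CYC1, cytochrome c1, are its catalytic subunits with nuclear genes. UQCRFS1 measured 98.9, 102 and 94.3 CPM in the siNeg libraries of TC-32 and 38.6, 39.3 and 37.1 CPM in the siFLI1 libraries. The TC-71 libraries held 121, 115 and 121 CPM of UQCRFS1 with siNeg and 80.1, 74.1 and 75.6 CPM with siFLI1. For UQCRFS1, the A673 values were 98.9, 100.5 and 99.4 CPM with siNeg and 72.2, 67.5 and 72.6 CPM with siFLI1. UQCRFS1 (chr19:29205320-29213151) was lower in every siFLI1 library, with log2 fold changes of -1.36 (edgeR adjusted p = 2.07e-17, SE 0.0536), -0.64 (edgeR adjusted p = 8.32e-13, SE 0.0483) and -0.49 (edgeR adjusted p = 1.41e-08, SE 0.0403).

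The TC-32 libraries held 179.9, 175 and 185 CPM of CYC1 with siNeg and 65.9, 73.8 and 69 CPM with siFLI1. For CYC1, the TC-71 values were 129, 131 and 137 CPM with siNeg and 87.9, 81.5 and 79.2 CPM with siFLI1. CYC1 measured 201, 189 and 188 CPM in the siNeg libraries of A673 and 138, 160.2 and 156 CPM in the siFLI1 libraries. The CYC1 groups (chr8:144095039-144097525) did not overlap in any line, and the fall shrank from TC-32 to TC-71 to A673. The log2 fold changes were -1.37 (edgeR adjusted p = 3.42e-18, SE 0.0494), -0.68 (edgeR adjusted p = 3.15e-13, SE 0.0491) and -0.34 (edgeR adjusted p = 1.25e-05, SE 0.0498). Between TC-32 and TC-71 the CYC1 effect differed by -0.70 (edgeR adjusted p = 6.79e-10, SE 0.0746), and between A673 and TC-71 by 0.30 (edgeR adjusted p = 0.000558, SE 0.0716). UQCRH, the hinge protein that meets cytochrome c1, fell by 1.20, 0.50 and 0.42 on the log2 scale, and the large core proteins UQCRC1 and UQCRC2 by 0.72 and 0.63 in TC-32, 0.25 and 0.43 in TC-71 and 0.31 and 0.25 in A673.

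UQCRB, a ubiquinone-binding subunit, had the deepest fall of all members in A673. The A673 libraries held 107, 112 and 115 CPM of UQCRB with siNeg and 78.7, 68.8 and 76.3 CPM with siFLI1. For UQCRB, the TC-32 values were 234, 248.9 and 224 CPM with siNeg and 170.3, 157 and 163 CPM with siFLI1. UQCRB measured 161, 141 and 143 CPM in the siNeg libraries of TC-71 and 114, 104 and 112 CPM in the siFLI1 libraries. Every siFLI1 library was below every siNeg library in each line. At log2 fold changes of -0.58 (edgeR adjusted p = 2.63e-08, SE 0.0494) for A673, -0.53 (edgeR adjusted p = 1.92e-10, SE 0.0468) for TC-32 and -0.43 (edgeR adjusted p = 2.09e-08, SE 0.0514) for TC-71, UQCRB was one of 2 members with A673 as the lowest line. TC-32 less A673 gave 0.07 (edgeR adjusted p = 0.432, SE 0.0758) for this gene, which did not pass the test. The small subunits UQCR10 and UQCR11 fell by 0.44 and 0.57 in TC-32 and by 0.28 and 0.25 in TC-71, and had 0.26 and 0.21 in A673. NDUFA4, the complex IV subunit in the group, fell by 0.96, 0.31 and 0.27.

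**Figure D4:**
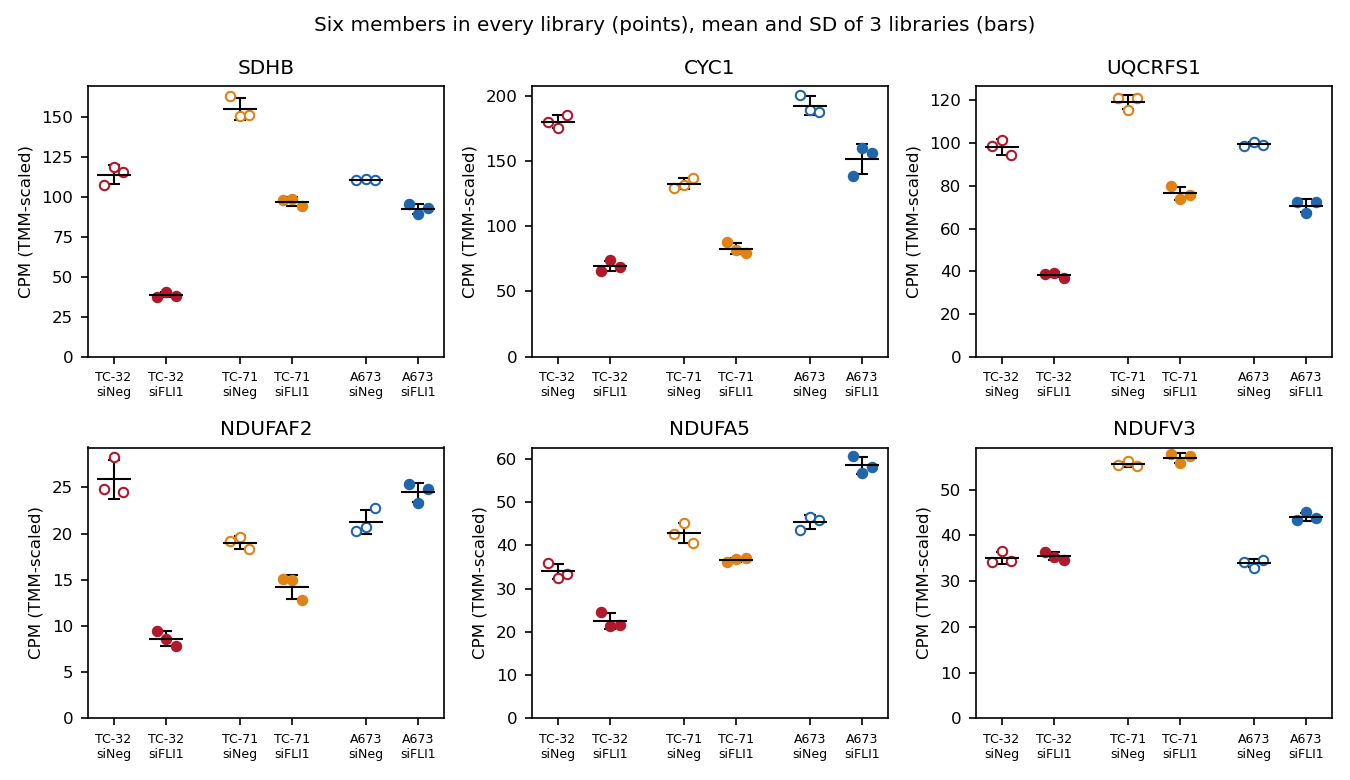
CPM of 6 members in each of the 18 libraries (open points siNeg, filled points siFLI1), with the mean and SD of 3 libraries as bars. SDHB, CYC1 and UQCRFS1 are lower with siFLI1 in every line, NDUFAF2 and NDUFA5 are lower in TC-32 and TC-71 and higher in A673, and NDUFV3 is higher in A673, while its TC-32 and TC-71 groups overlap.

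Across the lines, 28 members were called lower in all 3, and 0 were called higher in all 3 (0 by DESeq2 too), where 19% and 18.9% of the 14233 genes tested in every line met the same rules. The 28 include NDUFS1, NDUFS3 and NDUFS7 of the core, NDUFA1, NDUFA2, NDUFA6, NDUFA8, NDUFA9, NDUFB1, NDUFB3, NDUFB4, NDUFB6, NDUFB7, NDUFB8, NDUFB9, NDUFB11, NDUFC1 and NDUFS6 of the accessory subunits, SDHB, SDHD, CYC1, UQCRB, UQCRC1, UQCRC2, UQCRFS1 and UQCRH, and NDUFA4. No assembly factor is among them. The smallest falls in the set were -0.12 in A673 for NDUFA9, -0.11 in A673 for SDHD, -0.15 in A673 for NDUFS1 and -0.15 in A673 for NDUFB7. The NDUFB7 call in A673 was lost without siFLI1 replicate 1 (-0.079, adjusted p = 0.162), without siNeg replicate 1 (-0.11, adjusted p = 0.206) and with the length trend removed (-0.086, adjusted p = 0.292). It was lost at a fold change near the main one with RLE factors (-0.15, adjusted p = 0.0534), with a mean of at least 10 counts (-0.15, adjusted p = 0.0615), with DESeq2 (-0.15, adjusted p = 0.0591), without siNeg replicate 3 (-0.14, adjusted p = 0.13) and without siFLI1 replicate 3 (-0.15, adjusted p = 0.109). The TC-71 calls of NDUFA1 and NDUFA9 were lost with DESeq2 (-0.18, adjusted p = 0.0651 and -0.30, adjusted p = 0.063) and without siFLI1 replicate 2 (-0.14, adjusted p = 0.129 and -0.21, adjusted p = 0.105) or 3, and that of NDUFA1 also without siNeg replicate 1 (-0.11, adjusted p = 0.224) or 3 and with the length trend removed. The TC-71 call of NDUFA6, at -0.18, was lost without siNeg replicate 1 (-0.085, adjusted p = 0.2) and with the length trend removed (-0.073, adjusted p = 0.28). NDUFA9 in A673 was not called without siNeg replicate 2 (-0.11, adjusted p = 0.0532).

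A model of all 18 libraries tested the gap in effect between each pair of lines. TC-32 and A673 differed for 50 members, each of them lower in TC-32 (49 lower and 0 higher by DESeq2), where 62.1% of 19610 genes differed, 32.2% lower and 29.9% higher in TC-32. By the same edgeR test, TC-32 and TC-71 differed for 46, each lower in TC-32, while DESeq2 gave 44 lower and 1 higher, NDUFB5; here 53.6% of genes differed, 32.7% lower and 20.9% higher in TC-32. With library size alone as the scaling, 3 of 51 differing members were higher in TC-32 than in A673, and 1 of 44 was higher in TC-32 than in TC-71. A673 and TC-71 differed for 29 members, 24 of them higher in A673 and 5 lower (among them NDUFA13, NDUFC2, SDHC and UQCRB), where 51.6% of genes differed, 23.2% higher and 28.4% lower in A673. Library size alone gave 17 higher and 8 lower for that pair. The median difference over the members was -0.59 for TC-32 less A673, -0.48 for TC-32 less TC-71 and 0.12 for A673 less TC-71, and over all genes it was 0.01, -0.11 and -0.07.

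TC-32 gave the lowest of the 3 log2 fold changes for 55 of the 58 members, and 42 followed the order TC-32, TC-71, A673 from low to high. The FLI1 transcript followed the opposite order, with its deepest fall in A673. Members called in opposite directions were NDUFA5, NDUFA12, NDUFAF2, NDUFV2, UQCR10 and UQCR11 between TC-32 and A673, the same genes without NDUFV2 between A673 and TC-71, and NDUFA13 and NDUFC2 between TC-32 and TC-71. Over the 58 members, the values of TC-32 and TC-71 on the log2 scale had a Pearson r of 0.558 and a Spearman rho of 0.589, those of A673 and TC-71 0.368 and 0.426, and those of TC-32 and A673 0.331 and 0.339. Over all genes tested in both lines, r was 0.654, 0.626 and 0.6003. These are descriptions across genes, which are not independent replicates. The lines share no library, but line, medium, counting method, stated time and depth differ together in part, and their shares in a difference between lines cannot be told apart.

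**Figure D5:**
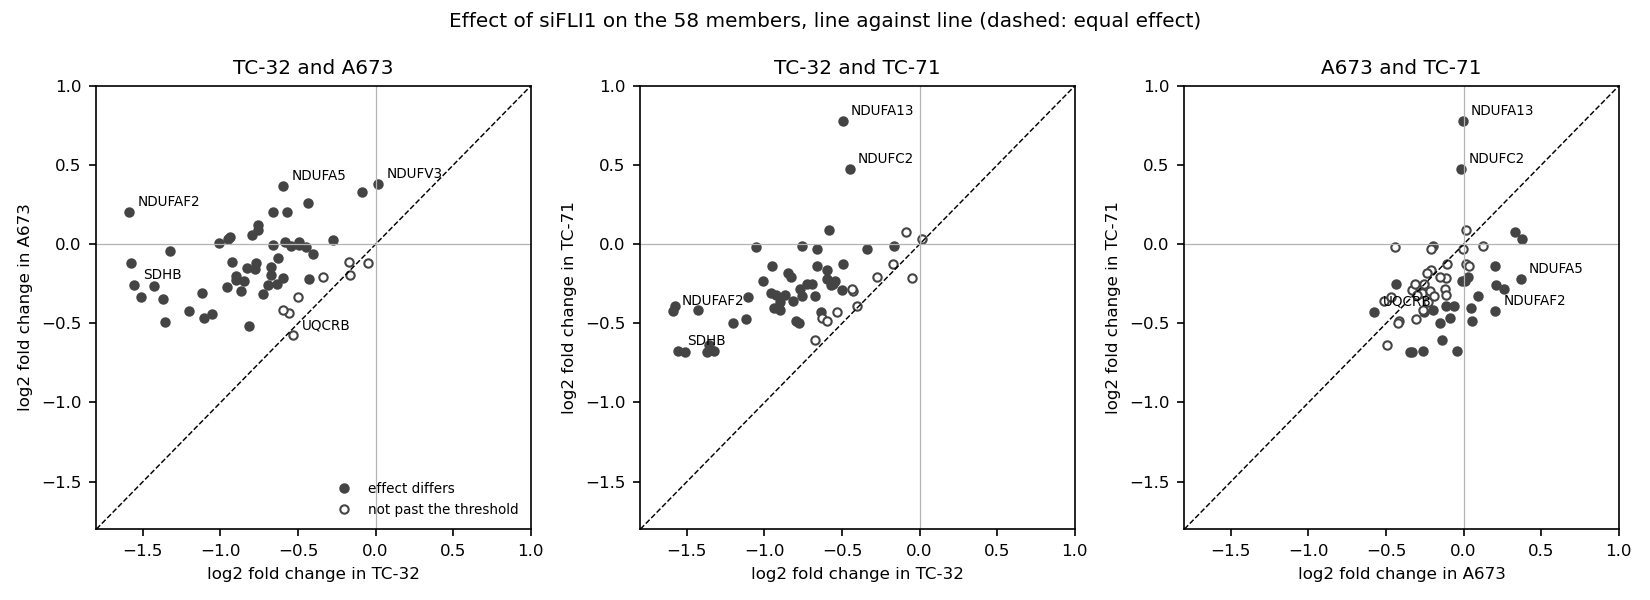
Log2 fold change of the 58 members in one line against another; the dashed line marks equal effects, and filled points differ by an edgeR interaction test at adjusted p under 0.05. The 50 differing members of TC-32 and A673 all lie above the dashed line, where the A673 value is the higher, as do the 46 of TC-32 and TC-71.

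In control cells, levels per length differed widely among the members. On the scale of siNeg CPM per kilobase of the main transcript, TC-32 ran from 2.26 to 427 with a median of 61, and A673 from 2.97 to 277 with a median of 49.3. The highest in TC-32 were UQCRH (427), NDUFS5 (384) and NDUFA1 (287), and the lowest NDUFAF5 (2.26), NDUFV3 (6.11) and NDUFA5 (6.18). In A673 the highest were UQCRH (277), NDUFS5 (185) and CYC1 (161), and the lowest NDUFAF5 (2.97), NDUFAF6 (5.41) and NDUFV3 (5.92). TC-71, where some levels are uncertain, ran from 1.17 to 727 with a median of 67.3. These ranks depend on the length used, 5.45 kb for NDUFAF5, 5.73 kb for NDUFV3 and 5.50 kb for NDUFA5. Which transcripts the cells make was not tested. NDUFB9, a membrane-arm subunit, had a siNeg mean of 503 CPM in TC-71 against 106 in TC-32 and 99.9 in A673, and fell by 0.41, 0.90 and 0.20 on the log2 scale. TATDN1 on the opposite strand shares 23.9% of the exon bases of the main NDUFB9 transcript, and 3 pseudogenes are named after NDUFB9. How such reads were counted is not given in the sources used here, so the NDUFB9 level in TC-71 is uncertain. Levels across lines come from tables quantified separately.

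The other genes of the pathway were counted by lists. Of 20 further assembly factors of complexes I to III, 16 were lower in TC-32 and 0 higher, 16 lower and 1 higher in TC-71, and 9 lower and 4 higher in A673. LYRM7, which hands the Rieske protein to complex III, had the deepest fall of this list in TC-71 and A673, with -1.74, -1.47 and -1.18 in TC-32, TC-71 and A673. SDHAF3, which helps to mature SDHB, fell by 1.90, 1.13 and 0.29 on the log2 scale. UQCC1, a complex III factor, had -0.13 and -0.10 without a call and rose by 0.37 in A673.

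Most nuclear genes of complexes IV and V fell beside the members in TC-32 and TC-71, where 40.1% and 35% of all genes were called lower, against 35.4% in A673. All 10 tested subunits of complex IV were lower in TC-32, 9 were lower and 1, COX6C, was higher in TC-71 (0.51), and 6 were lower in A673. COX4I2, COX6A2, COX6B2 and COX7A1 did not pass the filter in any line. For complex V, the ATP synthase, TC-32 had 15 of 15 lower, TC-71 had 14, and A673 had 6 lower, 1 higher and 8 not called, close to the share over all genes. The c-ring gene ATP5G1 had the largest fall, with -2.14, -1.33 and -1.02 in the 3 lines. Summed levels left were 60.3%, 85.9% and 86.4% for complex IV and 57.3%, 77.5% and 92.6% for complex V, next to 60.1%, 79.6% and 89.2% for the members.

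The 13 protein genes of mitochondrial DNA, which hold the other subunits of complexes I and III, kept 98.1%, 96.5% and 99.9% of their summed siNeg level. By the same test, 8 were lower and 1 higher in TC-32, 6 and 2 in TC-71, and 7 and 3 in A673. Of all genes tested, 40.1%, 35% and 35.4% were called lower in these lines and 41.3%, 36.8% and 35.6% higher. The medians of the 13 were -0.19, -0.09 and -0.11. MT-CYB, the subunit of complex III encoded in mitochondrial DNA, had -0.10, -0.10 and -0.12, next to -1.37, -0.68 and -0.34 for its partner CYC1. MT-ND2, a membrane subunit of complex I, had -0.48, -0.19 and -0.14. MT-CO1, the main subunit of complex IV, rose by 0.36 in TC-32 and 0.15 in A673 and had an uncalled 0.04 in TC-71. Between A673 and TC-71 the edgeR interaction test called 0 of the 13 (3 lower and 1 higher in A673 at an unadjusted p under 0.05, and 1 by DESeq2). That test called 51.6% of all genes.

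Of the listed regulators of mitochondrial gene expression, 12 of 13 were lower in TC-32. PPARGC1A was the 1 that rose, from 0 counts in each siNeg library to 1.8, 1.31 and 1.22 CPM, at least 11.9-fold higher against a floor of 3 counts per library. In TC-71, 10 of 12 tested were lower and 0 higher, and in A673 6 were lower and 3 higher. The shares over all genes were 40.1% lower and 41.3% higher in TC-32, 35% and 36.8% in TC-71, and 35.4% and 35.6% in A673. TFAM, which packs and transcribes mitochondrial DNA, had -1.53 for TC-32, -0.69 for TC-71 and an uncalled -0.06 for A673. POLRMT, the mitochondrial RNA polymerase, fell by 1.18, 0.98 and 0.58 on the log2 scale, and PPARGC1B, a coactivator of respiratory genes, by 2.50, 0.88 and 1.08. GABPA, the ETS factor named above, fell by 0.55, 0.19 and 0.46, and NRF1, a factor of nuclear respiratory genes, by 0.25, 0.33 and 0.55. MYC fell by 2.71 in TC-32, and by 0.73 in TC-71, and rose by 0.36 in A673.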

How the data were processed

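Messenger RNA of 18 libraries was sequenced after a stranded kit. The authors deposited 1 table per line: expected counts for TC-32 and A673 (RSEM, per the table names) and counts for TC-71 (Subread, per the table name). The submitters' processing notes list cutadapt 4.4, STAR 2.7.3, featureCounts, Subread 2.0.3, limma 3.38.3 and GRCh38, without their roles. The line of the TC-32 and TC-71 columns rests on the table names. Expected counts were rounded. edgeR 4.0.16 (R 4.3.3; filterByExpr, TMM, robust quasi-likelihood test, prior count 0.125) was fitted per line over all genes, with Benjamini-Hochberg adjustment, and contrasts between lines in 1 model of all 18 libraries. Scripts were tested on simulated data. Alternatives used DESeq2 1.42.0, limma 3.58.1 (voom), other scalings and filters, a lowess length trend, a replicate block and leaving out each library. Totals run from 19685354 to 120993595 counts, and exact permutation of 3 against 3 libraries cannot pass 0.05, so the fit across genes was used. Genes named by rule were members called one way in all lines, the 3 largest called rises and falls per line, the 2 widest differing members called in opposite directions per pair, and the SDH, complex I core, NDUFAF, UQCRFS1, CYC1 and NDUFA4 genes; others were named after their values were seen. SE are of the unshrunken coefficients. Gene positions and shared bases come from GENCODE 44, promoters from RefSeq. The members and lists were chosen with earlier results of these data known. The ES-5838 line and siERG were not analysed here, and the values of 1 member and 1 marker are not reported here.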

Additional observations from a re-analysis of the deposited data

Results flagged for a closer look

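By edgeR interaction tests, 50 of the 58 members had unlike effects in TC-32 and A673, where 62.1% of all genes did. The pair TC-32 and TC-71 gave 46 such members, against 53.6% of genes. For A673 and TC-71 the count was 29, a share no higher than the 51.6% of all genes. Among members called in opposite directions, NDUFAF2 had a difference of -1.77 (edgeR adjusted p = 1.58e-16, SE 0.105) between TC-32 and A673 and NDUFA5 one of -0.94 (edgeR adjusted p = 3.01e-12, SE 0.0813). Between TC-32 and TC-71, NDUFA13 differed by -1.28 (edgeR adjusted p = 1.23e-07, SE 0.164) and NDUFC2 by -0.94 (edgeR adjusted p = 2.23e-07, SE 0.132), both at low counts in TC-71. The difference between A673 and TC-71 was 0.60 (edgeR adjusted p = 8.04e-06, SE 0.103) for NDUFAF2 and 0.55 (edgeR adjusted p = 2.61e-07, SE 0.0782) for NDUFA5. For each gene, all 3 siFLI1 libraries of one line moved below siNeg and all 3 of the other above it, except NDUFC2, whose TC-71 groups overlapped.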

How the results depend on the processing

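All 7 counts kept within 1.5 times their value with RLE factors, library size alone, no filter on low counts, a mean of at least 10 counts, limma-voom, DESeq2, unrounded counts where run, the replicate block and the length trend removed. Library size alone moved the all-gene median of A673 from -0.01 to -0.11, and the median over the members to -0.25, while it gave -0.67 in TC-32. With that scaling, 40 members were called lower and 5 higher in A673, and 34 were lower in all 3 lines. Those newly called lower in A673 include NDUFAF3, NDUFAF4, NDUFAF7, NDUFC2, NDUFV1 and SDHA (edgeR adjusted p from 0.00113 to 0.019). With the length trend removed, the members' medians were -0.66 in TC-32 and -0.098 in A673. The 47 members that share under 10% of their transcript bases had medians of -0.76 in TC-32 and -0.20 in A673. Asking for at least 1.5-fold as well left 7 members called in TC-71 and 0 in A673 by edgeR, 0 shared by all 3 lines, and 31, 23 and 3 differing members for TC-32 and A673, TC-32 and TC-71, and A673 and TC-71. Of the 28 members without a named pseudogene, 27 were called in TC-32 (median -0.65), 21 in TC-71, 16 in A673 and 12 in all lines, and 24, 22 and 13 differed in those pairs. Both subsets were chosen after seeing the data.

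Leaving out 1 library at a time gave 54 to 55 called members in TC-32, 44 to 49 in TC-71, 36 to 45 in A673, 26 to 28 in all 3, and 48 to 52, 44 to 49 and 24 to 28 for the pairs, with medians of -0.75 to -0.69, -0.33 to -0.26 and -0.15 to -0.13. With RLE factors, the sign turned for NDUFA13 in A673 (0.0018). With library size alone, the sign turned for NDUFAF5 in A673 (-0.091), NDUFAF6 in A673 (-0.046), NDUFS8 in A673 (-0.067). With no filter on low counts, the sign turned for NDUFV3 in TC-32 (-0.0028). With a mean of at least 10 counts, the sign turned for NDUFA13 in A673 (0.00056). With the length trend removed, the sign turned for NDUFA13 in A673 (0.068), NDUFAF1 in TC-71 (0.00079), NDUFAF3 in A673 (0.011), NDUFAF5 in A673 (-0.0021), NDUFC2 in A673 (0.072), NDUFV2 in TC-71 (0.078), NDUFV3 in TC-32 (-0.00905), SDHC in TC-71 (0.11). Leaving out 1 library gave log2 fold changes of -0.062 to 0.083 for NDUFA13 in A673, -0.056 to 0.00103 for NDUFAF1 in TC-71, -0.026 to 0.0398 for NDUFAF5 in A673, -0.027 to 0.0025 for NDUFC2 in A673, -0.022 to 0.12 for NDUFS8 in A673, -0.10 to 0.00600 for NDUFV1 in A673, -0.11 to 0.16 for NDUFV2 in TC-71, -0.0103 to 0.039 for NDUFV3 in TC-32, -0.036 to 0.029 for SDHA in A673, -0.047 to 0.00036 for SDHC in TC-71. None of these values was called in the main test, and the cause was not tested. Of all libraries left out, siFLI1 replicate 1 of A673 gave the most turned signs, 4, and 3 further values gained a call. The A673 changes given above for NDUFA13, NDUFS8, NDUFAF4, NDUFAF7 and NDUFB7 include ones seen without this library. The labels do not say whether the replicate numbers pair the libraries. Correlations of the deviations of siNeg and siFLI1 libraries lay between -0.1 and 0.1 and showed no shared replicate effect. They cannot tell whether the libraries were paired by design. With the replicate block, 54, 47 and 35 members were called in TC-32, TC-71 and A673, 25 in all 3, and 50, 46 and 26 differed in the pairs. The block also lost the calls of NDUFA9, NDUFB7, NDUFV2 and SDHD in A673 and of NDUFAF7 in TC-32 (edgeR adjusted p from 0.051 to 0.064). Low counts limit the precision of NDUFA7, NDUFA13, NDUFV2 and NDUFC2 most, in TC-71, whose totals (19685354 to 37234528 counts) overlap those of TC-32 (24102487 to 33669271).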
